A study of Mus musculus with 2 samples.

Results

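The membrane-anchored serine proteases of epithelium and the sodium channel they act on were followed in the vagina of wild type (WT) and *Fbln5*-/- mice. The set held 10 genes, 7 proteases (*Prss8*, *St14*, *Tmprss4*, *Tmprss11a*, *Tmprss11d*, *Tmprss11e* and *Tmprss13*) and the 3 subunits of the epithelial sodium channel (*Scnn1a*, *Scnn1b* and *Scnn1g*). They were taken by name, as every probe set annotated to 1 of these genes and no other, out of 18194 genes named in this way on the array. Each of the 10 genes had 1 probe set, and no probe set was shared with a further gene. All 10 passed the limit for low values, with scaled signals of 316 or more on both arrays.

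RNA from whole vagina of WT and *Fbln5*-/- mice, which lack the elastic fibre protein fibulin-5, was hybridized to Affymetrix mouse expression arrays, 1 array per genotype. Both groups were females of the C57/Bl6 background, 6 months old, ovariectomized and given estradiol (50 µg/kg/d) for 3 d. The sources differ on when ovariectomy was done, with 11 d in the labels of the samples, 2 weeks in the text of the series, and an age of 2 months in the study's general methods. For the arrays, the methods start estradiol 2 weeks after ovariectomy. The methods count 2 animals per group, and whether their RNA was pooled is not given in the sources used here. With 1 array per genotype, no difference below has a replicate check, no test between genotypes was possible, and no error between animals is given. In whole tissue, fewer cells of a type and less RNA per cell cannot be told apart.

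These proteases are trypsin-like enzymes that sit on the cell surface. Matriptase (*St14*) and the *Tmprss* enzymes span the membrane with their own N-terminal segment, whereas prostasin (*Prss8*) is held by a lipid anchor. Matriptase and prostasin are known for activating each other in stratified epithelium, where they are needed for the barrier and for filaggrin processing. Several of the enzymes raise the activity of the epithelial sodium channel, in part by cutting its γ subunit, and prostasin, Tmprss4 and matriptase are also known as channel-activating proteases. The Kunitz inhibitors HAI-1 (*Spint1*) and HAI-2 (*Spint2*) hold them in check.

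Signals were scaled to the same median on both arrays, and the ratio of *Fbln5*-/- over WT was taken on the log2 scale. A gene was counted as measured at a scaled signal of 100 on at least 1 array, which left 11934 genes. The targeted gene, *Fbln5*, had signals of 410.4 (WT) and 30.4 (*Fbln5*-/-). Its second probe set stayed under 100 on both arrays, and whether either lies in the deleted part was not known. The control probe set at the 5′ end of *Gapdh* was lower in the *Fbln5*-/- sample (17262.5 and 794.7), while that at its 3′ end was not (13329 and 13829). The middle *Gapdh* probe set was also lower (15720 and 7058). For *Actb* the 5′ (9200 and 2513) and middle (9536 and 4090) controls were lower, with the 3′ end less apart (13392 and 11845). Where the probe sets of the proteases and channel subunits lie on their transcripts was not known. The part of these low control values in their ratios was not tested. Stratified epithelium was present on both arrays, with *Krt5*, the basal keratin, at 16102 and 16059, and *Krt13*, a suprabasal keratin, at 19999 and 21197.

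Of the 10 genes, 3 were at least 2-fold higher in the *Fbln5*-/- sample, *Tmprss11d*, *Tmprss11a* and *Scnn1b*. None was 2-fold lower. Over all genes measured, 7.21% were 2-fold higher and 4.77% were 2-fold lower. With the median ratio of bright probe sets set to 1 instead, these shares were 5.69% and 5.85%. The median log2 ratio was 0.62 for the 7 proteases and 0.42 for the 3 channel subunits, and that of all genes measured was 0.16 (quartiles -0.17 and 0.50). In sum 8 members had a higher signal and 2 a slightly lower one, where 63.6% of all genes were higher. *Scnn1b* lay close to the limit, at 2.05-fold. It stayed under 2-fold on the deposited scale (log2 ratio 0.96) and under the other 3 scalings tried, which left 2 of 10 members past the limit.

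**Figure D1:**
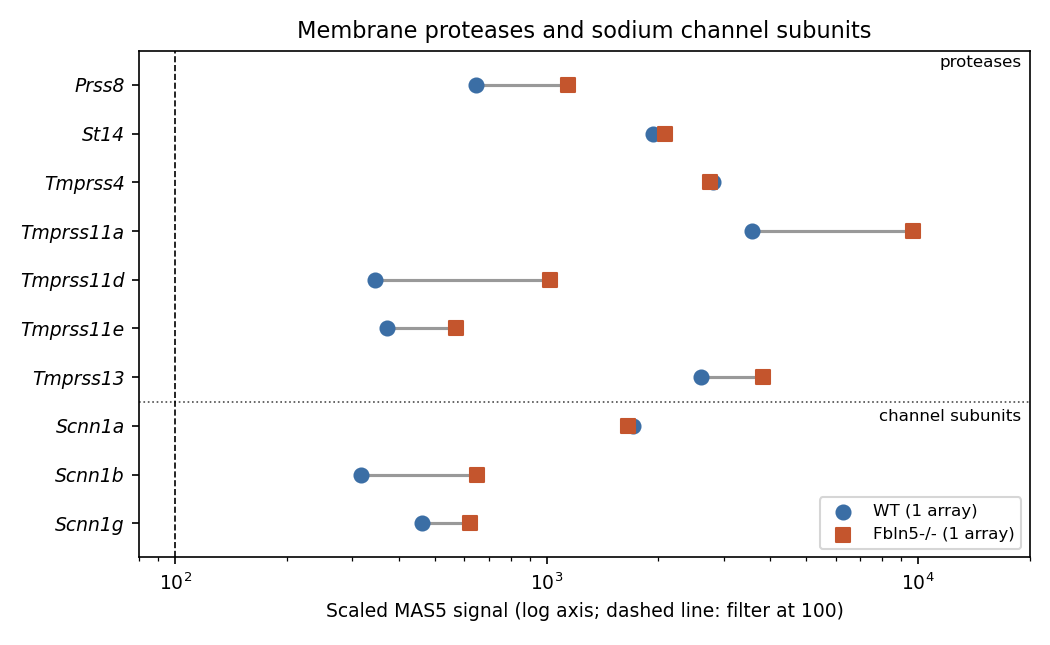
Scaled MAS5 signal (log axis) of the 7 proteases and 3 channel subunits for WT as circles and for Fbln5-/- as squares (1 array per genotype), with the filter at 100 as a dashed line. The widest gaps are those of Tmprss11d (344 and 1023) and Tmprss11a (3578 and 9681), while St14, Tmprss4 and Scnn1a overlap.

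The size of a ratio depends on signal, so members were also read beside genes of like signal, in bands chosen after the values were seen. Of the 4036 genes with a mean signal of 300 to 1000, 6.67% were 2-fold higher and 5.08% 2-fold lower. Of the 5 members in that band, 2 were 2-fold higher (*Tmprss11d* and *Scnn1b*). Of the 4788 genes at 1000 or more, 4.72% were 2-fold higher and 3.15% lower, and *Tmprss11a* was the 1 of 5 members past the limit. In this brighter band the median of the members (log2 ratio 0.10) lay close to that of the genes (0.14). In the dimmer band it was 0.82, against 0.16.

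**Figure D2:**
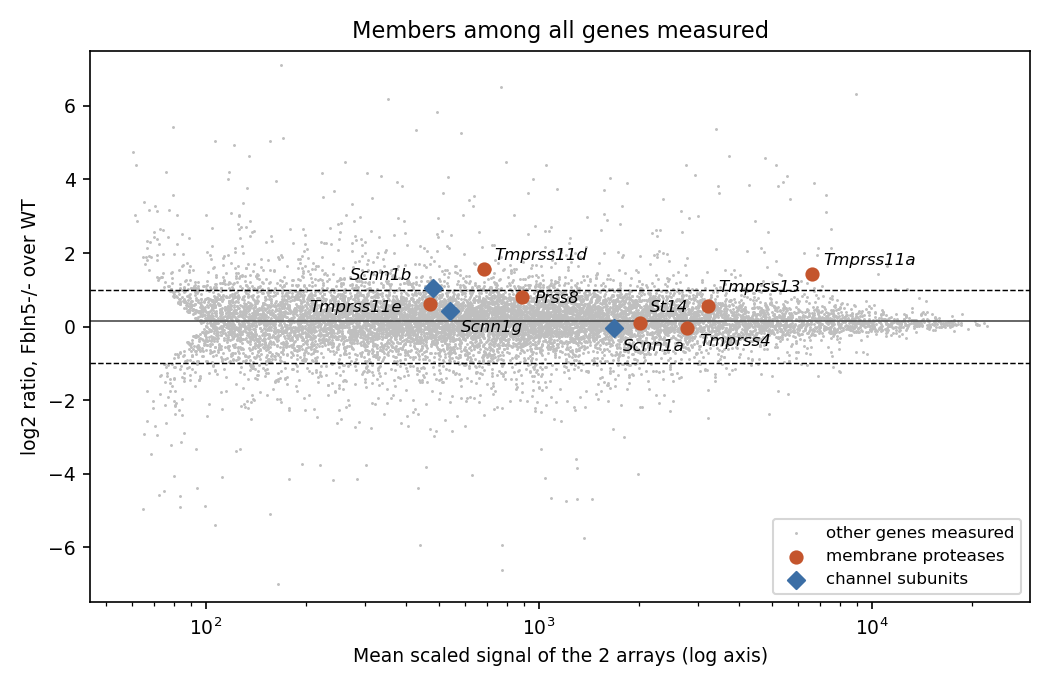
Log2 ratio of Fbln5-/- over WT against the mean scaled signal of the arrays (log axis) for all 11934 genes measured (grey), with the proteases as circles and the channel subunits as diamonds. Dashed lines mark 2-fold and the solid line the median of all genes (0.16). Tmprss11d, Tmprss11a and Scnn1b lie above the upper dashed line, and no member lies below the lower one.

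Among the proteases, *Tmprss11d* and *Tmprss11a* had the highest ratios. This subfamily, known as HAT/DESC proteases, is typical of stratified and airway epithelium. *Tmprss11d*, the airway trypsin-like protease, had signals of 344 (WT) and 1023 (*Fbln5*-/-). This was a 2.97-fold difference, with a log2 ratio of 1.57 that exceeded those of 97.3% of genes. *Tmprss11a* had signals of 3578 and 9681, 2.71-fold higher (log2 ratio 1.44). The third member, *Tmprss11e* (DESC1), was less apart, at 372 and 569.8. Its log2 ratio of 0.62 was 0.95 under that of *Tmprss11d* and 0.82 under that of *Tmprss11a*. *Tmprss11d* and *Tmprss11a* differed from each other by only 0.14.

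The spread between probe sets of 1 gene gives a scale for a single ratio. Taken from 4116 genes with several bright probe sets (100 or more in WT and in *Fbln5*-/-), its pooled SD was 0.53 in log2 units. This is the SD of 1 probe set about the mean of its gene, and a difference between a pair of probe sets varies more. It is spread within these arrays, not split into its sources, and does not stand for the spread between animals. No member had a second probe set against which its ratio could be read.

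The *Tmprss11* genes lie side by side on chromosome 5. In the order of the GRCm38.p6 annotation the run is *Tmprss11c*, *Tmprss11d*, *Tmprss11a*, *Tmprss11g*, *Tmprss11f*, *Tmprss11b* and *Tmprss11e*, 7 genes of which 5 were measured. All 5 had higher signals in the *Fbln5*-/- sample, 3 of them by 2-fold or more. Over all genes measured, 63.6% were higher and 7.21% were 2-fold higher. Of these 3 genes, *Tmprss11d* and *Tmprss11a* are members already counted above. *Tmprss11f*, which is not among the 10 members, had signals of 106 and 256 (log2 ratio 1.27), and its WT value was just above the filter. *Tmprss11g* had signals of 417 and 823 (log2 ratio 0.98). Its probe set is of the _x_at kind, whose probes can bind other transcripts, so its signal is uncertain in a family of related genes. The median log2 ratio of the 5 was 1.27.

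The 6 nearest measured genes on either side had a median log2 ratio of 0.53, against 0.16 for all genes. The 3 nearest measured genes before the run had log2 ratios of 0.51 (*Uba6*), 0.09 (*Cenpc1*) and 0.03 (*Igfbp7*). After it came *Ythdc1*, at 0.55, and *Smr2*, which was under 100 in WT (85.1 and 139, log2 ratio 0.71). The highest was *Jchain*, the joining chain of secreted antibodies, with signals of 553 and 7996 (log2 ratio 3.85). The run was seen to stand together only after the values were known.

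**Figure D3:**
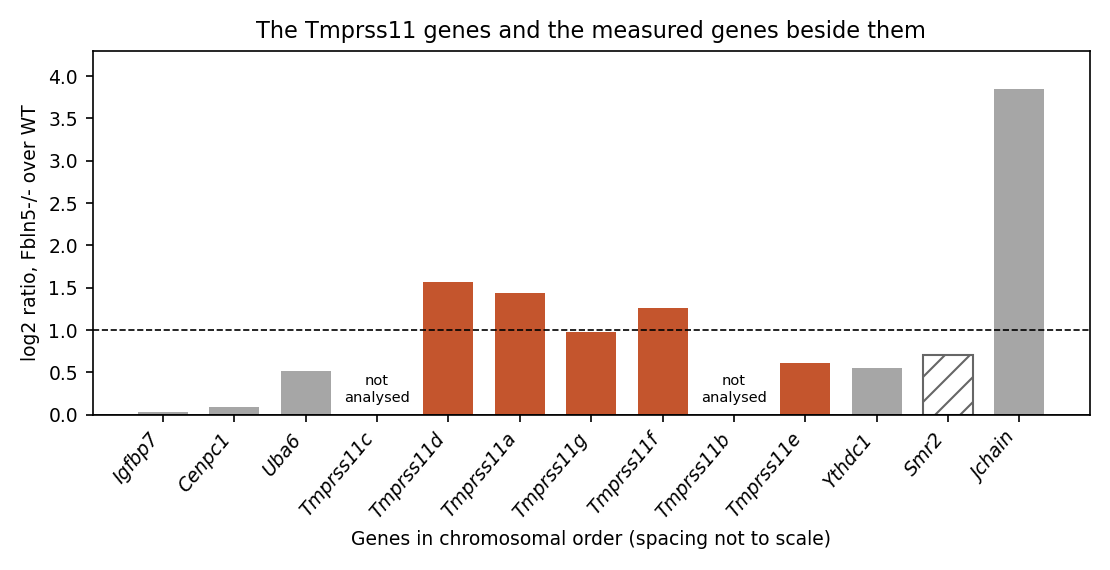
Log2 ratio of Fbln5-/- over WT (1 array each) for the Tmprss11 genes (orange) and the 3 nearest measured genes on each side (grey; hatched where 1 array was under 100), in chromosomal order and without spacing to scale. The dashed line marks 2-fold. The 5 Tmprss11 genes measured lie between 0.62 and 1.57, and Jchain reaches 3.85.

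Because these neighbours were higher together, their promoters are shown. The RefSeq promoter table (GRCm38.p6) holds 300 bases per start, 250 before and 50 after, and it has *Tmprss11d*, *Tmprss11a*, *Scnn1b* and *Scnn1g* of the 10 members. Those of the first pair are printed with those of their neighbours *Tmprss11g* and *Tmprss11f*, which are not members. They lie on the minus strand, at chr5:86373338-86373637 (*Tmprss11d*), chr5:86468941-86469240 (*Tmprss11a*), chr5:86518551-86518850 (*Tmprss11g*) and chr5:86632375-86632674 (*Tmprss11f*). They are written 5′ to 3′ on the strand of the gene. Capitals mark matches to the AP-1 site (TGANTCA, either strand) or to the p53-family half-site (either strand). The half-site is only a part of the motif bound by p63, the regulator of stratified epithelium.
Tmprss11d: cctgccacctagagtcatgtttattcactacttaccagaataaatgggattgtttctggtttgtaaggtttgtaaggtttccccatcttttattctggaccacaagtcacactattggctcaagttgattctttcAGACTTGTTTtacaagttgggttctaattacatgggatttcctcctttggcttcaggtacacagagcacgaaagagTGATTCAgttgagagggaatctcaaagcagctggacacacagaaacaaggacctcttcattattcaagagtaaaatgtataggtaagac
Tmprss11a: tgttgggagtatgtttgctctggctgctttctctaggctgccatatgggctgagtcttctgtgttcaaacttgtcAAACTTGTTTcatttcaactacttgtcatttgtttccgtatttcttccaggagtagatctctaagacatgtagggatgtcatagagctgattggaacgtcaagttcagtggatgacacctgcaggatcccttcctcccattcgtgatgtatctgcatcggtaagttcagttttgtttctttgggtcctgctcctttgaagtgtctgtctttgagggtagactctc
Tmprss11g: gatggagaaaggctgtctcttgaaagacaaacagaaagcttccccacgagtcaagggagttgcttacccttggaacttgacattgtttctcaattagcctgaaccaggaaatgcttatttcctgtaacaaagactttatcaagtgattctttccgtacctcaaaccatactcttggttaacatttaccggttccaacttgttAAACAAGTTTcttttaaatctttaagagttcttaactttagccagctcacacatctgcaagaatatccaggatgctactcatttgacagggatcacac
Tmprss11f: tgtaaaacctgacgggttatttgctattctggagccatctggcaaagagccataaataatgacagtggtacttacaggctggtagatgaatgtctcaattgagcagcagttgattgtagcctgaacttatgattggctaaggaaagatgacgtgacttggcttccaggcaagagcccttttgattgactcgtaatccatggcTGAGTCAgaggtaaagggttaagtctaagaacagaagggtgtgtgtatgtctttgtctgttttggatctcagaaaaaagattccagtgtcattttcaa

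The half-site was found once in the promoters of *Tmprss11d*, *Tmprss11a* and *Tmprss11g*, starting at positions -115, -175 and -48 from the transcription start. The AP-1 site was found once each in those of *Tmprss11d* and *Tmprss11f*, starting at -39 and -48. The half-site was added to the motifs after the sequences had been looked at, so its count in this run of related genes is no test of enrichment. No matches overlapped. Of the 6 promoters of the run in the table, 4 held the half-site (the fourth is that of *Tmprss11b*, not analysed on the arrays) and 2 the AP-1 site. Among all 32851 promoters in the table, 8.36% held the half-site and 7.81% the AP-1 site. A TATA box (TATAAA, on the strand of the gene) and the grainyhead-like site AACCGGTT (either strand) were in none of the 6, and in 8.32% and 0.146% of all promoters. The promoters of *Scnn1b* and *Scnn1g* held none of these 4 motifs. A match describes letters in this window and is no evidence of binding. *Trp63*, which encodes p63 and was named for this motif, had signals of 6103 and 7115 at its brightest probe set (log2 ratio 0.22). Of its other probe sets, 1 went from 286 to 12.9 1 from 290.5 to 105 and 1 from 83.8 to 129.

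The remaining proteases were less far apart. *Prss8*, which encodes prostasin, had signals of 647 and 1138. It was 1.76-fold higher in the *Fbln5*-/- sample (log2 ratio 0.82), above 88.7% of genes and under the 2-fold limit. *Tmprss13* had signals of 2604 and 3832 (log2 ratio 0.56). *St14*, the gene of matriptase, was nearly level, at 1936 and 2081 (log2 ratio 0.10). *Tmprss4* was level as well, with signals of 2800.4 and 2752.5 (log2 ratio -0.02). *Tmprss4* and *Tmprss13* lie close together on chromosome 9, yet their log2 ratios differed by 0.58. Between *Prss8* and *St14*, the pair known for mutual activation, the difference was 0.71. These differences within the arrays do not depend on a factor applied to a whole array. The spread of such a difference is wider than the pooled SD of a single probe set.

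The 3 channel subunits differed in their ratios. *Scnn1a*, the α subunit that is needed for the channel to reach the membrane, was level at 1711 and 1656 (log2 ratio -0.05). *Scnn1b*, the β subunit, had signals of 316 and 649 (log2 ratio 1.04). *Scnn1g*, the γ subunit that is the target of prostasin, had signals of 463 and 620.1 (1.34-fold higher, log2 ratio 0.42). The log2 ratio of *Scnn1b* was 1.08 above that of *Scnn1a* and 0.62 above that of *Scnn1g*, whose gene is its neighbour on chromosome 7. *Scnn1g* was 0.47 above *Scnn1a*, which is within the pooled SD between probe sets. The spread of a difference between genes is wider than that SD. On the far side of *Scnn1g*, the nearest measured genes had log2 ratios of 0.50 (*Usp31*), 0.87 (*Hs3st2*) and -0.04 (*Mettl9*). Those on the far side of *Scnn1b* had log2 ratios of -0.27 (*Cog7*), -0.20 (*Gga2*) and -0.33 (*Ears2*).

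**Figure D4:**
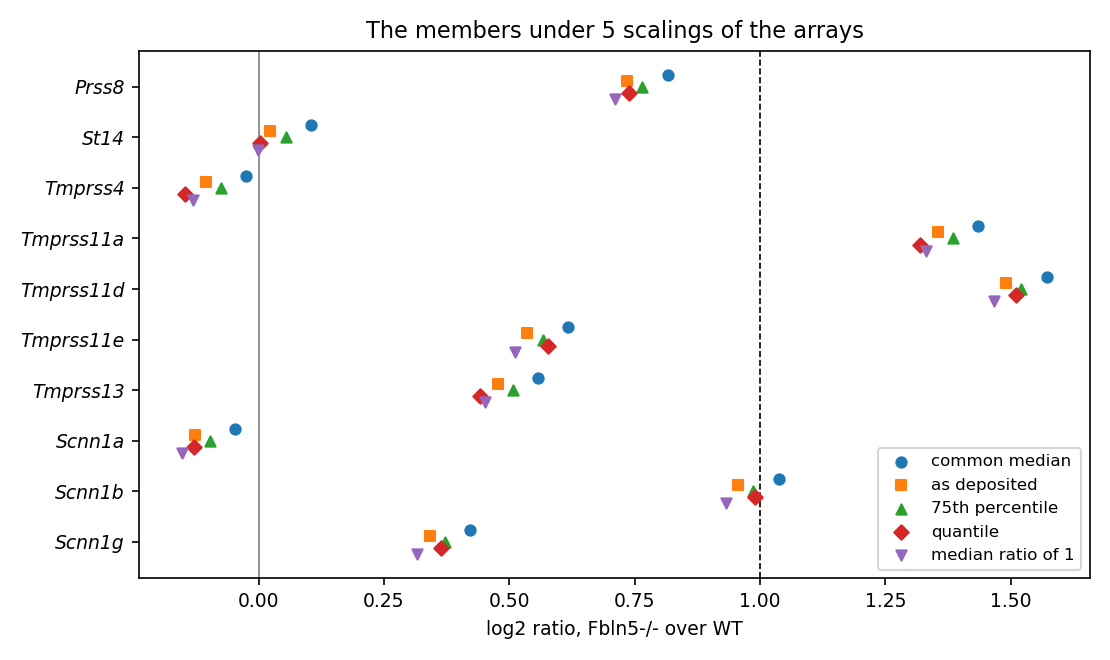
Log2 ratio of Fbln5-/- over WT for each member after scaling to a common median, on the deposited scale, with the 75th percentile set equal, after quantile normalization, and with the median ratio of the bright probe sets (100 or more in both samples) set to 1. Dashed and solid lines mark 2-fold and no difference. Tmprss11d (1.47 to 1.57) and Tmprss11a (1.32 to 1.44) stay past 2-fold, Scnn1b is past it only with the common median, and St14 reaches -0.00 with the median ratio of 1.

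Both inhibitors measured had higher signals in the *Fbln5*-/- sample, within 2-fold. *Spint1* (HAI-1) had signals of 3952 and 5381, and *Spint2* (HAI-2) had signals of 6460 and 8865 at its brightest probe set. Their log2 ratios were nearly equal, at 0.45 and 0.46. A second *Spint2* probe set gave 0.41. Against *Spint1*, the log2 ratio of *Prss8* was 0.37 higher and that of *St14* was 0.34 lower, both less than the pooled SD between probe sets. *Spint4* was under 100 on both arrays, and *Spint3* and *Serpine2* were not analysed here.

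Other membrane-anchored serine proteases were mostly dim. Of 20 listed, 14 had a probe set of their own and 10 of these stayed under 100 on both arrays. Of the 4 measured, *Tmprss11f* was 2-fold higher. *Hpn*, which encodes hepsin, was the lower one, at 104 and 41.9, at least 1.04-fold against the floor of 100. *Tmprss2* had signals of 447 and 479. Proprotein convertases, of which 5 were measured, cut precursors such as the α and γ channel subunits inside the cell. *Pcsk5* was 2-fold higher at its brightest probe set (249.9 and 644) but level at its other one past the filter (192 and 199). *Furin*, the best known of them for this channel, had signals of 1445 and 2248 (log2 ratio 0.64). *Pcsk6* and *Pcsk7* had log2 ratios of -0.31 and 0.15.

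Of 12 measured substrates and partners of the proteases, 2 were 2-fold higher and 2 were 2-fold lower (2 and 1 once every signal below 100 was raised to 100). The median log2 ratio of this list was 0.13, near that of all genes. *Flg*, whose profilaggrin product is processed downstream of matriptase and prostasin, had signals of 679 and 2781 (4.10-fold higher). *F2r*, the thrombin receptor PAR1, was 3.24-fold higher at its brightest probe set (1015 and 3292) and 4.17-fold at its other. *Epcam*, an adhesion protein cut by matriptase, had log2 ratios of 0.99 and 1.24 at its pair of probe sets. On the lower side, *Plaur*, the urokinase receptor, had signals of 456 and 199.9, and *Plau*, whose urokinase precursor matriptase can activate, had 189 and 86.8. *Cdcp1*, another surface substrate, had a log2 ratio of 0.17. *Sdc1* (syndecan-1) was level at 11983 and 12474, but 1 of its other probe sets went from 4900 to 48.2. Probe sets away from a 3′ end could share the low values of the *Gapdh* controls (log2 ratio -4.44 at the 5′ end, -1.16 in the middle). The position of these probe sets on their transcripts was not known, and its part in the lower values was not tested.

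Genes that regulate the sodium channel were within 2-fold at their brightest probe sets. Of 11 measured, none was 2-fold apart there in either direction. A higher signal was seen for 10, where 63.6% of all genes were higher. The median log2 ratio was 0.52, against 0.16 for all genes. *Sgk1*, the aldosterone-induced kinase that keeps the channel at the membrane, had signals of 3958 and 5297 (log2 ratio 0.42). *Wnk1*, a kinase of salt transport, had 5472 and 9449.9 at its brightest probe set (0.79). *Nedd4*, a ubiquitin ligase, was the lower gene at -0.10, and its other probe sets gave -0.97 and -1.20. Its relative *Nedd4l*, the ligase that removes the channel from the membrane, had signals of 560.2 and 896 (0.68). *Usp2*, a deubiquitinase, had 533 and 987 at its brightest probe set (0.89) and was 2.26-fold higher at its other one (227 and 513). *Hsd11b2*, the enzyme that shields the mineralocorticoid receptor from glucocorticoids, had signals of 355 and 621 (0.81). The receptor gene *Nr3c2* stayed under 100 on both arrays (44.1 and 76.6). *Tsc22d3* (0.94), *Stk39* (0.38) and *Sgk3* (0.28) were higher at their brightest probe sets but reached -0.50, -0.58 and -0.27 at others past the filter. The further probe sets of *Usp2*, *Wnk1* and *Nr3c1* past the filter stayed higher. *Nedd4l*, *Usp2*, *Hsd11b2*, *Nr3c2*, *Tsc22d3*, *Stk39*, *Sgk3* and *Nr3c1* were named after their values were seen.

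Sodium leaves the cell through the sodium pump, of which 6 listed genes were measured. *Atp1b1*, a β subunit, was the 1 gene past 2-fold, at 585 and 1275 (log2 ratio 1.12), and its 3 other probe sets past the filter gave 0.61, 0.95 and 1.23. *Atp1b3* (0.01), *Fxyd3* (0.14) and *Fxyd4* (0.26) were close to level. The catalytic α subunits were not analysed here. Of the channel's relatives, the acid-sensing channels, *Asic2* alone was measured (172 and 253).

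**Figure D5:**
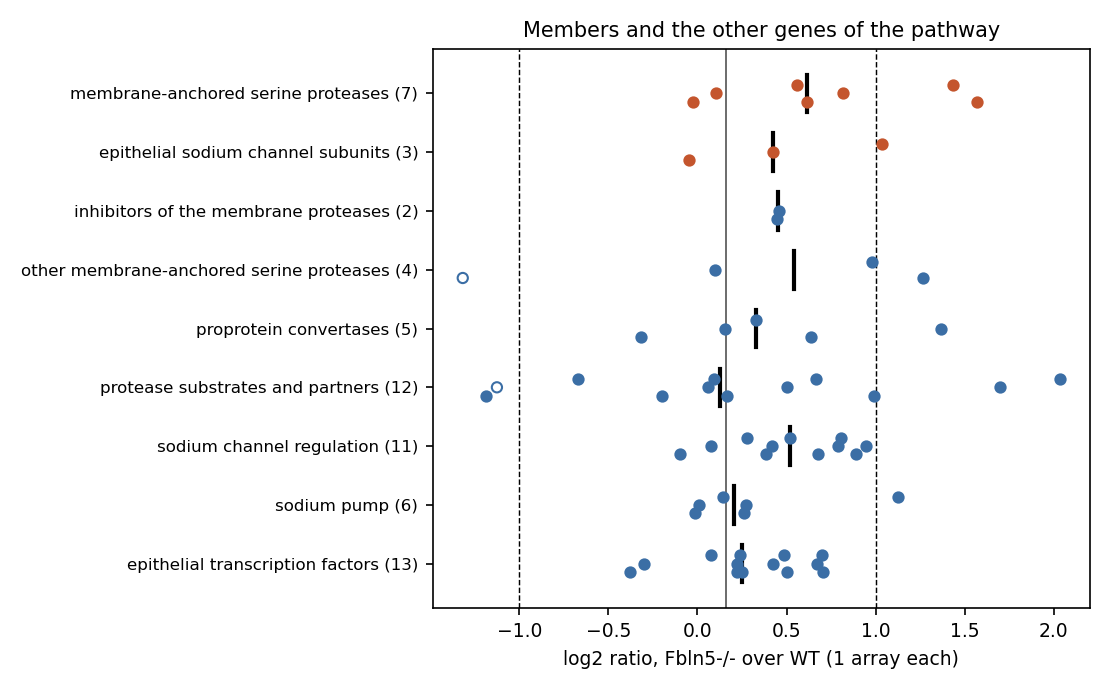
Log2 ratio of Fbln5-/- over WT (1 array each) for each gene measured in the protease, channel and epithelial transcription factor lists. The list of channel relatives, with 1 gene measured, is not shown. Numbers of genes are in brackets, list medians are black bars, dashed lines mark 2-fold and the solid line the median of all genes (0.16). Open circles are genes under 100 on 1 array. The medians run from 0.13 for substrates and partners to 0.62 for the proteases.

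Transcription factors of epithelium were all within 2-fold at their brightest probe sets. A higher signal was seen for 11 of 13, where 63.6% of all genes were higher. Their median log2 ratio was 0.25, against 0.16 for all genes. *Klf4* (0.07) and *Klf5* (0.25), which regulate barrier and growth genes, were close to the median of all genes. *Ehf*, an Ets factor of differentiated epithelium, had signals of 5207 and 8287 (0.67), and its other probe sets at 100 or more in both samples gave 0.79 and 0.88. It was named after its values were seen.

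Marker genes of the cells in the tissue were read beside these values. The 5 basal markers had a summed signal of 50421 (WT) and 56035 (*Fbln5*-/-) and a median log2 ratio of 0.10, with none 2-fold apart. The 10 suprabasal markers summed to 117391 and 133124, with a median of 0.16, and *Ivl* (involucrin) was the 1 gene 2-fold higher (521 and 1341). The 6 markers of simple epithelium summed to 28001 and 31475. The log2 ratios of these 3 sums lay between 0.15 and 0.18. Sodium channel subunits are also known from urinary epithelium. *Upk2*, a urothelial plaque protein, had 464 and 442, *Upk1a* had 127 and 45.04, and the other 3 uroplakins were under 100 on both arrays. All 5 kidney tubule markers were under 100.

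Among the other cell types, the summed signals of the adipocyte and leukocyte lists differed most. The 4 adipocyte markers with a probe set summed to 2127 and 6949, including *Adipoq* (104 and 1131) and *Fabp4* (1980.3 and 5703), while *Lep* and *Cidec* were under 100. The 5 leukocyte markers summed to 2830 and 6178, with *S100a8* at 1198 and 4372 and *Cd79a*, a B cell gene, at 7.78 and 144, next to the *Jchain* values above. The median log2 ratio of the leukocyte list was 0.18, and its other markers were *Ptprc* (722 and 815), *Cd68* (783 and 769.7) and *Cd3e* (119 and 76.1). *S100a8* thus made up most of the difference in the sum. The smooth muscle markers summed to 25157 and 24598, with a median log2 ratio of -0.56. *Des* (-0.63), *Smtn* (-0.61) and *Cnn1* (-0.56) had lower signals, while *Myh11* (0.33) and the bright *Acta2* (15045 and 16566) had higher ones. The markers of fibroblasts summed to 56518 and 66282, those of endothelium to 2396 and 2630.2 and those of skeletal muscle to 4118 and 4996. The part of these cells in the ratios of the proteases and channel subunits was not tested.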

How the data were processed

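RNA from vagina of 1 WT and 1 *Fbln5*-/- sample was measured on Affymetrix mouse expression arrays, from 6 µg of total RNA. The authors deposited linear intensities of 45101 probe sets. The submitters' processing notes name MAS5, and its version and a genome build are not given in the sources used here. The mean deposited intensity with 2% trimmed at each end was 500.0 on both arrays, so a scaling per array had been applied. The 2 arrays were here set to a common median (factors 0.972 and 1.03), after the 50th percentile normalization in the methods, and a signal of 0 was set to 0.1. Probe sets that stayed under 100 in both samples were left out, except in the marker sums, which took the brightest probe set of every gene. Of all probe sets 34958 had 1 gene symbol in the platform annotation, 932 several and 9211 were not listed there, and only the first kind was named. The brightest probe set stood for a gene. RefSeq tables of GRCm38.p6 gave gene order and promoters.

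With 1 array per genotype no test was made, a 2-fold difference was counted, and the number of arrays limits the precision. Members, lists and limits were chosen with earlier results of these data known. Named were all members, the measured inhibitors, and from every other list the genes 2-fold apart and the 3 brightest, with any exception stated in the text. Markers were named as examples, those of leukocytes and smooth muscle in full after their values were seen. Alternatives changed the scaling (4 ways), the filter, the treatment of low signals, the choice of probe set and the fold limit. The steps were tested on simulated data, with changes past 2-fold planted in bright genes and little noise added. That does not probe calls close to the limit. Tables were computed in pandas 2.3.3 and numpy 2.4.6 under Python 3.11.15, and plots drawn with matplotlib 3.10.9. Trimmed means used scipy 1.17.1.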

Additional observations from a re-analysis of the deposited data

How the results depend on the processing

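With a limit of 3-fold no member was counted as higher (0 of 10, against 2.65% of all genes), where *Tmprss11d* lay just under it at 2.97-fold. With 1.5-fold 5 of 10 were, against 20.0% of all genes. The count was 2, without *Scnn1b*, on the deposited scale, with the 75th percentile, with quantile normalization, with the median ratio set to 1 and with 32 added to each signal. It was 3 under the other settings tried at 2-fold. No member was 2-fold lower under any setting tried, and the median log2 ratios stayed at 0.51 to 0.62 for the proteases and 0.32 to 0.42 for the subunits. *St14* turned from 0.10 to -0.00 with the median ratio set to 1. That scaling moved the median of all genes from 0.16 to 0.05 and the split of 861 higher and 569 lower genes to 679 and 698, the deposited scale moved it to 723 and 667, and averaging a gene's probe sets past the filter moved it to 779 and 835. Without the filter it was 2048 and 1535, at 3-fold 316 and 211, and at 1.5-fold 2392 and 1238. With averaged probe sets, *Sdc1* had a log2 ratio of -1.77, *Trp63* -1.27, *Nedd4* -0.75, *Tsc22d3* 0.12 and *Pcsk5* 0.71. *Met* had -1.42 when averaged and 0.67 at its brightest probe set, and *Atp1b2* had -0.35 and 0.27. With a floor of 100, *Hpn* had -0.06. The cause was not tested. No paired analysis was possible because each genotype had 1 array. Deposited signals under 100 made up 54.8% of WT and 55.9% of *Fbln5*-/- probe sets, and differences among them were not read.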
